A study of Mus musculus with 16 samples.

Results

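The genes described here encode the nuclear subunits of the oxidative phosphorylation machinery, the 5 enzyme complexes of the mitochondrial inner membrane. They were taken by symbol (Nduf with a subunit letter and number for complex I, Sdh for complex II, Uqcr for complex III, Cox for complex IV and Atp5 for complex V), with the row of highest mean intensity standing for each gene. The rule found 81 genes among 19938 with a row of their own, namely 35 in complex I, 4 in complex II, 8 in complex III, 17 in complex IV and 17 in complex V. Other genes whose symbol fits the rule were not analysed here. Mouse liver RNA of C57BL/6 background, 7 Pdgf-c transgenic and 9 wildtype samples, was hybridised to Affymetrix Mouse Gene 1.0 ST arrays, 1 array per sample. The transgene product, PDGF-C, is a growth factor for fibroblasts and hepatic stellate cells, and the series asked what stromal cells contribute to liver tumours in this strain. Pdgf-c transgenic mice of this kind have been described with the gene under the albumin promoter, which is active in hepatocytes, but the labels name no promoter, age or sex and do not say that each array is a separate animal, so the p-values measure the spread between arrays.

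Complexes I, III and IV pass electrons from NADH and ubiquinol to oxygen and pump protons across the inner membrane. Complex II feeds electrons from succinate into the same chain, and complex V, the ATP synthase, uses the proton gradient to make ATP. Hepatocytes are rich in mitochondria and depend on this chain for urea synthesis, gluconeogenesis and fatty acid oxidation. A small core of the subunits is encoded by mitochondrial DNA, and the subunits described here are made from nuclear genes and imported.

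Many of the nuclear genes carry sites for nuclear respiratory factor 1 (NRF1), ETS factors such as GABPA, the oestrogen-related receptors (ERR) and YY1 close to their start sites. The promoters of 4 members are printed for this reason: Uqcrc1, which had the largest fall, Sdha and Atp5g3, lowered members with NRF1 matches, and Cox8b, which had the largest rise. They run from 250 bases before the annotated start to 50 bases after it, 5′ to 3′ on the gene's strand, from RefSeq on build GRCm38.p6. Uqcrc1 is at chr9:108936398-108936697 (plus strand), Sdha at chr13:74350191-74350490, Atp5g3 at chr2:73911277-73911576 and Cox8b at chr7:140900397-140900696 (all minus strand). Capitals mark matches on either strand. For NRF1 these are GCGCATGCGC, as in Uqcrc1, with any base allowed in place of its T. The ETS letters were CCGGAAGT, the ERR letters TCAAGGTCA, the YY1 letters AAGATGGCG and those of a common core promoter element TATAAA.
Uqcrc1: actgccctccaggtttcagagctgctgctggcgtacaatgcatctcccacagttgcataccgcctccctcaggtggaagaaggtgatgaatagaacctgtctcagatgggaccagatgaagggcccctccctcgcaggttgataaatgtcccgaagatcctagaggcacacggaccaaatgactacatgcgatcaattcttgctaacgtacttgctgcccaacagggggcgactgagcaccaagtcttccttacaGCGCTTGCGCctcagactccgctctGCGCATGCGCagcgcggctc
Sdha: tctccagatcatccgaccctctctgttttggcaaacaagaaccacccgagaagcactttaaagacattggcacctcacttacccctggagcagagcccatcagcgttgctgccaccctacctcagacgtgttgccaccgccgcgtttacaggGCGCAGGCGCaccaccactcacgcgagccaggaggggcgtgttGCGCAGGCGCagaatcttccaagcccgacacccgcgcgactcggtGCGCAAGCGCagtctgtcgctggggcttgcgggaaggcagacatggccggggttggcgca
Atp5g3: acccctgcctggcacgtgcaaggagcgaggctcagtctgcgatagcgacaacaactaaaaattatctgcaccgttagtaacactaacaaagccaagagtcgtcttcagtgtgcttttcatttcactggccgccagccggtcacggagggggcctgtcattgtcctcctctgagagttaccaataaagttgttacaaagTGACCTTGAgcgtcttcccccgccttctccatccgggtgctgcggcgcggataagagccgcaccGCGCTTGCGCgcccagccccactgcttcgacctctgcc
Cox8b: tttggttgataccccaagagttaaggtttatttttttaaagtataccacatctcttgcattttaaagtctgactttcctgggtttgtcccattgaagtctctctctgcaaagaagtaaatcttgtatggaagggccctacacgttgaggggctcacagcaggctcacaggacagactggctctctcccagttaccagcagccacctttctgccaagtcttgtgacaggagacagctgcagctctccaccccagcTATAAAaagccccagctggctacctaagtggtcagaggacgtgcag
The Uqcrc1 window held NRF1 matches beginning 5 and 30 bases after the start. Sdha held 3, beginning 98, 55 and 10 bases before it. In Atp5g3 an ERR match lay 52 bases before the start and an NRF1 match 12 bases after it. Cox8b held none of the 4 factor motifs and a TATAAA match 4 bases after the annotated start. Promoters were found for 66 of the 81 members. The NRF1 motif was present in 16 of these 66 genes (24.2%) against 5.19% of 27025 genes with a promoter in the table, and the YY1 motif in 10.6% against 1.64%. The ETS motif was present in 7.58% of members against 4.31% and the ERR motif in 3.03% against 0.466%. TATAAA was present in 12.1% of members against 15.7% of all genes. NRF1 matches stood in 10 of 35 genes called lower, 5 of 28 not called and 1 of 3 called higher, and these motif counts are descriptions that say nothing of binding.

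Genes for subunits of all 5 complexes were among those lower in the transgenic livers, and few were higher. At a Benjamini-Hochberg adjusted p of 0.05 over all 35557 rows (limma), 41 of the 81 genes fell and 4 rose, where 11.1% of all genes fell and 12.1% rose (8.26% and 10.6% of all rows, with or without a gene symbol). The falls were small, from 0.08 to 0.44 on the log2 scale (1.06-fold to 1.35-fold), so a gene of this set that did not pass the test is not shown to be unchanged, and 66 of the 81 differences were below 0. The median difference of the 81 genes was -0.10, against -0.04 over all 19938 genes. All 7 transgenic arrays lay below all 9 wildtype arrays in 21 members (3.65% of all genes) and above them in 1 (5.43% of all genes).

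**Figure D1:**
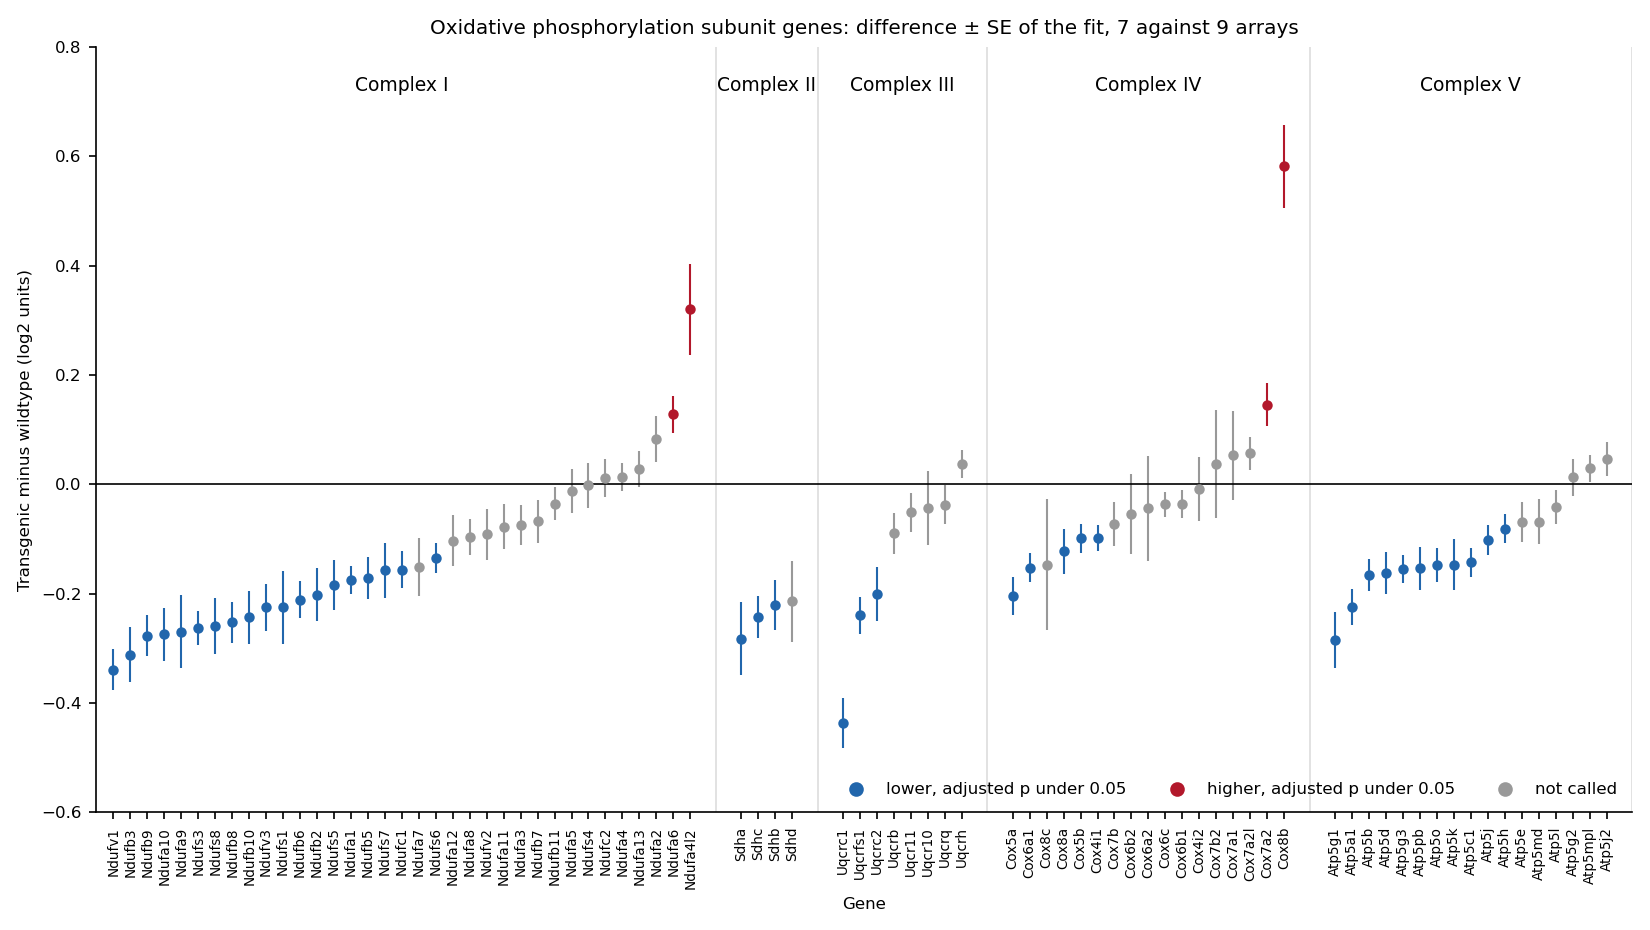
Transgenic minus wildtype difference of each of the 81 subunit genes in log2 units, with the standard error of the limma fit as bars, grouped by complex and ordered by size within it. Blue points fell, red points rose and grey points were not called at an adjusted p of 0.05; the lowest point is Uqcrc1 at -0.44 and the highest Cox8b at 0.58.

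The share of lowered genes has to be read against brightness, because bright rows fell more often throughout the array. Of 3645 genes with a wildtype mean of at least 8 on the log2 scale, 34.8% fell and 10.1% rose, with a median of -0.10. All 41 lowered members were among the 73 members at that level, and the median of those 73 was -0.14. Between wildtype means of 8 and 10, 4 of 8 members fell against 31.3% of all genes, from 10 to 11 it was 9 of 18 against 40.9%, from 11 to 12 it was 20 of 33 against 47.0%, and from 12 upwards 8 of 14 against 45.2%. In steps of 0.5 from 10 to 12 the order was not the same throughout: in the second step 3 of 11 members fell against 47.4% of all genes, and in the third 12 of 16 against 49.7%. The median difference from 10 to 11 was -0.11 for members and -0.11 for all genes, and from 11 to 12 it was -0.15 against -0.14. Between 8 and 10 it was -0.18 against -0.09, and from 12 upwards -0.12 against -0.09. In the second step of 0.5 the order was reversed, with -0.08 against -0.16. The excess of lowered subunit genes over genes of like brightness was thus much smaller than that over all genes, and it was not tested.

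**Figure D2:**
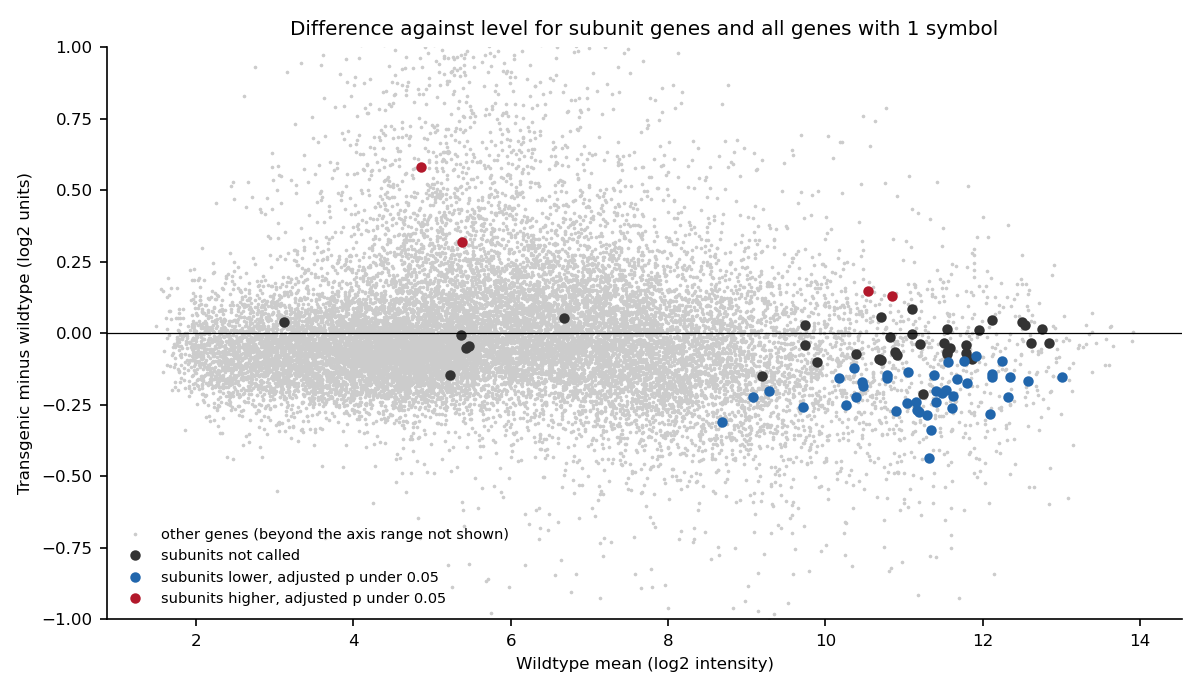
Difference between the groups (log2 units) against the wildtype mean (log2 intensity) for the subunit genes, with blue points lower, red higher and black not called, and for all other genes with 1 symbol, in grey, on a vertical axis cut at -1 and 1. The 8 members below a wildtype mean of 8 include the rises of Cox8b and Ndufa4l2, and the 41 lowered members all lie to the right of it.

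Markers of liver cells moved in the same arrays. Of 14 stellate cell and fibroblast markers all 14 rose, and their summed level (log2 of the summed intensities) was 12.8 to 13.1 in transgenic and 10.8 to 11.5 in wildtype arrays. Of 15 hepatocyte markers 7 fell, 1 rose and 7 were not called, with a median difference of -0.11. The largest called falls were those of Otc (-0.51 ± 0.0487), F9 (-0.33 ± 0.0678) and Arg1 (-0.29 ± 0.0541), each without overlap. The summed level of the hepatocyte markers was 16.65 to 16.72 against 16.71 to 16.79, and Alb, not called, averaged 13.54 and 13.56. Of 13 leukocyte and macrophage markers 9 rose, among them Cx3cr1 (2.20 ± 0.106) and Lyz2 (1.73 ± 0.17), and the Kupffer cell genes Clec4f (-2.70 ± 0.184) and Cd163 (-2.76 ± 0.121) fell; their summed level was 10.90 to 11.50 against 10.49 to 11.27. Of 11 endothelial markers 4 rose, led by Emcn (1.23 ± 0.117), and 4 fell, led by Kdr (-1.01 ± 0.0976), with summed levels of 10.59 to 10.80 and 10.53 to 10.93. Of 4 erythroid markers Alas2 and Klf1 fell (-0.45 and -0.30; summed level 9.54 to 10.02 against 9.95 to 10.42), and none of 6 cholangiocyte markers passed the test, with summed levels of 7.40 to 7.66 and 7.48 to 7.60. The part of these changes in the results below was not tested. The samples are labelled stromal cells, whereas the protocol describes total hepatic RNA and Alb is bright in both groups, so they are read here as whole liver. In such bulk RNA, fewer hepatocytes and less subunit RNA per hepatocyte cannot be told apart. Over all genes, 2209 were lower and 2422 higher (47.7% of calls lower), and 3350 and 1860 (64.3%) after subtracting each array's median.

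Complex I takes electrons from NADH. Of its 35 genes 19 fell and 2 rose, with a median difference of -0.16. The share lowered was 54.3% at a median wildtype level of 10.82. Of all genes between 10 and 11, 40.9% fell, and of those between 10.5 and 11 it was 47.4%. The levels of the 35 genes ranged from 5.38 to 12.76. Of 6 measured core genes, which belong to the conserved catalytic part of the enzyme, 5 fell. Of the 29 other genes, counted as accessory by symbol and including Ndufa4 and its paralogue Ndufa4l2, 14 fell and 2 rose. Ndufv1, which encodes the subunit that binds NADH and the flavin, ranged from 10.9 to 11.1 in transgenic arrays (median 11.03) and from 11.2 to 11.4 in wildtype arrays (median 11.34). The groups did not overlap, and the gene was 1.26-fold lower (-0.34 ± 0.0373, SE; limma adjusted p = 2.77e-06). Ndufs3, a subunit of the matrix arm, ranged from 11.22 to 11.43 (median 11.37) against 11.58 to 11.66 (median 11.61), again without overlap (-0.26 ± 0.0305; limma adjusted p = 5.16e-06).

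Further core genes showed smaller margins. Ndufs8, an iron-sulfur subunit, was at -0.26 ± 0.0511 with 6 of 7 transgenic arrays below all wildtype arrays. Ndufs1, the large iron-sulfur subunit, was at -0.22 ± 0.0668 (limma adjusted p = 0.0236), but not without transgenic array 3 (0.057) or 4 (0.0532), nor without transgenic array 1 and wildtype array 9 together (0.0614); the call held in 23 of 28 alternatives, with an adjusted p of 0.0818 at most. Ndufs7, next to the quinone site, was at -0.16 ± 0.0506 with groups that overlapped, and its adjusted p of 0.0363 (limma) passed 0.05 on leaving out any of transgenic arrays 1, 3, 4 and 7 or wildtype arrays 1, 3, 4, 7 and 8, reaching 0.0789 at most, and was 0.144 after quantile normalization. Ndufv2 did not pass the test (-0.09 ± 0.047, limma adjusted p = 0.207). This held in 27 of 28 alternatives, and the lowest adjusted p (limma) among them all was 0.0275.

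Among accessory subunits, Ndufb3 in the membrane arm ranged from 8.21 to 8.57 (median 8.34) in transgenic and from 8.59 to 8.79 (median 8.68) in wildtype arrays. It was 1.24-fold lower without overlap (-0.31 ± 0.0507; limma adjusted p = 0.000201). Ndufb9, another membrane-arm subunit, was 1.21-fold lower, also without overlap (-0.28 ± 0.0376), and Ndufa10 was lower by 0.27 ± 0.0484 with 6 of 7 transgenic arrays below the wildtype range. The other accessory genes that fell ranged from -0.27 (Ndufa9) to -0.13 (Ndufs6), and the 14 genes of the complex that did not pass the test ranged from -0.15 (Ndufa7) to 0.08 (Ndufa2).

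Ndufa6 and Ndufa4l2 moved the other way. Ndufa6, an accessory subunit of the matrix arm, ranged from 10.92 to 11.07 (median 10.98) against 10.76 to 10.97 (median 10.84), and rose 1.09-fold (0.13 ± 0.0342; limma adjusted p = 0.0121). The groups overlapped, and after median centring the difference was 0.08 (limma adjusted p = 0.108). The call was also lost with the replicate block. It held in 26 of 28 alternatives, with an adjusted p (limma) of 0.118 at most. Ndufa4l2, a paralogue of Ndufa4 known as a target of hypoxia-inducible factor, ranged from 5.53 to 5.97 (median 5.68) in transgenic and from 5.13 to 5.56 (median 5.44) in wildtype arrays. It rose (0.32 ± 0.0825; limma adjusted p = 0.00959), with 6 of 7 transgenic arrays above all wildtype arrays, at a level near the median of the table (5.26). Ndufa4 itself, now assigned to complex IV by biochemical work, stood at 12.7 to 12.9 in transgenic and 12.7 to 12.8 in wildtype arrays and did not pass the test (0.01 ± 0.0248; limma adjusted p = 0.768). Ndufa4l2 is also known from pericytes. Of 13 pericyte and smooth muscle markers 5 rose and 1 fell, their summed level was 10.65 to 10.85 against 10.23 to 10.44, with Abcc9 (1.73 ± 0.0971) and Kcnj8 (0.80 ± 0.0967) higher and Rgs5 lower (-1.17 ± 0.129), each without overlap, and Higd1b at 4.44 and 4.52; their part in the result was not tested.

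Complex II, succinate dehydrogenase, had differences of -0.28 to -0.21 in all 4 genes, and 3 of them fell. Their median wildtype level was 11.51, where 47.0% of all genes between 11 and 12 fell. Sdha, the flavin subunit that oxidises succinate, ranged from 11.47 to 11.96 (median 11.96) in transgenic and from 11.96 to 12.2 (median 12.1) in wildtype arrays. Its groups did not overlap, although 4 transgenic arrays lay just under the lowest wildtype array, and the difference was -0.28 ± 0.0666 (limma adjusted p = 0.00505). Sdhc, a membrane anchor, ranged from 11.02 to 11.29 (median 11.17) against 11.3 to 11.45 (median 11.41), without overlap (-0.24 ± 0.0385; limma adjusted p = 0.000157). Sdhb, the iron-sulfur subunit, was at -0.22 ± 0.0452 with 6 of 7 transgenic arrays below the wildtype range. Sdhd, the second anchor, stood at -0.21 ± 0.0739 and just missed the threshold (limma adjusted p = 0.0517). It passed on leaving out transgenic array 2, 5 or 6 or wildtype array 2 or 6 (0.0246 to 0.0479). The spread within the transgenic group was widest for this complex. Transgenic arrays 1, 3 and 4 had mean deviations from the wildtype means of -0.49, -0.35 and -0.33, whereas the other 4 lay between -0.16 and -0.11.

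Complex III, the cytochrome bc1 complex, divided into 3 larger subunits that fell and 5 small ones that did not pass the test. Its share of 37.5% lowered, at a median wildtype level of 11.43, was below the 47.0% of all genes between 11 and 12. Uqcrc1, a core protein facing the matrix, had the largest fall of all 81 genes. It ranged from 10.75 to 11.03 (median 10.85) in transgenic and from 11.17 to 11.47 (median 11.31) in wildtype arrays. The groups were well apart, and the gene was 1.35-fold lower (-0.44 ± 0.0453; limma adjusted p = 1.40e-06). Uqcrfs1, the Rieske iron-sulfur protein that takes electrons from ubiquinol, ranged from 10.81 to 10.99 (median 10.96) against 11.07 to 11.23 (median 11.16), without overlap (-0.24 ± 0.0338; limma adjusted p = 4.54e-05). Uqcrc2, the second core protein, was at -0.20 ± 0.0492 (limma adjusted p = 0.00692) with 5 of 7 transgenic arrays below the wildtype range. The small subunits Uqcrb, Uqcr11, Uqcr10, Uqcrq and Uqcrh had differences from -0.09 to 0.04. After median centring, 5 of the 8 genes fell, and the share of all genes lowered was 16.8%. Cyc1, the cytochrome c1 of this complex, lies outside the symbol rule and fell by 0.32 ± 0.0371 (limma adjusted p = 4.58e-06).

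Complex IV, cytochrome c oxidase, had 5 lowered and 2 raised genes of 17 and a median difference of -0.04. Its nuclear subunits come partly as isoforms of different tissues. All 5 falls were among the 10 genes for ubiquitous or liver forms, and none among the 7 genes for forms known from muscle, lung or testis, whose levels were 3.12 to 6.68 in wildtype. The 10 genes, 50% of them lowered, had a median wildtype level of 11.65, where 47.0% of all genes between 11 and 12 fell. Cox5a, next to the catalytic core, ranged from 11.09 to 11.31 (median 11.19) in transgenic and from 11.31 to 11.49 (median 11.38) in wildtype arrays. It was 1.15-fold lower with groups that just did not overlap (-0.20 ± 0.0347; limma adjusted p = 0.000298). Cox6a1, the liver form of subunit VIa, ranged from 12.11 to 12.25 against 12.29 to 12.41 and fell by 0.15 ± 0.0264 (limma adjusted p = 0.000361), also without overlap. Cox5b and Cox4i1, the zinc-binding subunit and the regulatory subunit, each differed by -0.10 (SE 0.0259 and 0.0235), and their groups overlapped.

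Some calls in complex IV moved with the method. Cox8a, the ubiquitous subunit VIII, was at -0.12 ± 0.0416 (limma adjusted p = 0.0471). It lost its call after quantile normalization (0.108) and on leaving out any one of transgenic arrays 2 to 7 or of wildtype arrays 1, 2, 3, 4, 7 and 8 (0.0559 to 0.104). Its call held in 11 of 28 alternatives, with an adjusted p of 0.13 at most. The calls of Cox5b and Cox4i1 held in 26 and 27 of 28, with adjusted p-values of up to 0.108 and 0.0722, and both were lost with eBayes without a trend. With arrays centred on their medians 8 genes of the complex fell, and with eBayes without a trend 2 did. Of all genes 16.8% and 10.5% fell under these settings. Cox6b1, Cox6c and Cox7b differed by -0.04, -0.04 and -0.07, and Cox7a2l, a factor of respiratory supercomplexes, by 0.06; none of them passed the test.

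The genes that rose in complex IV were Cox7a2 and Cox8b. Cox7a2, the liver form of subunit VIIa, ranged from 10.58 to 10.78 (median 10.7) against 10.48 to 10.69 (median 10.52) and rose 1.11-fold (0.15 ± 0.0394; limma adjusted p = 0.0133). The groups overlapped, and the call was lost with arrays centred on their medians (0.09, limma adjusted p = 0.142) and with the replicate block. It held in 26 of 28 alternatives. Cox8b, the subunit VIII form of heart, skeletal muscle and brown fat, ranged from 5.17 to 5.76 (median 5.41) in transgenic and from 4.72 to 5.13 (median 4.85) in wildtype arrays. No array overlapped, and the gene rose 1.5-fold (0.58 ± 0.0757; limma adjusted p = 1.91e-05), the largest difference among the 81 genes, at a level close to the median of the table. Wildtype array 9 stood above the other wildtype arrays, at 5.13.

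Other isoforms of muscle and testis did not pass the test. Cox7a1 and Cox6a2, the forms of heart and skeletal muscle, differed by 0.05 ± 0.0818 and -0.04 ± 0.0962. Cox4i2, the lung form, differed by -0.01 ± 0.0587, and the testis forms Cox6b2, Cox7b2 and Cox8c by -0.05, 0.04 and -0.15; none of 10 testis markers passed the test in either direction. Of 16 skeletal and heart muscle markers 1 rose, Tnnt2 (1.09 ± 0.0883), and none fell; their summed level was 9.09 to 9.29 against 8.83 to 9.18, while Ckm averaged 4.81 and 4.71. Of 10 adipocyte markers 1 rose, Fabp4 (0.96 ± 0.0777, without overlap), and 1 fell, Elovl3 (-0.70 ± 0.159). The summed levels of the adipocyte markers were 9.50 to 10.19 and 9.63 to 10.22, and Cidea averaged 3.97 and 4.01. The part of these markers in the rise of Cox8b was not tested.

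Complex V had 11 lowered and no raised genes of 17 and a median of -0.14. The share lowered was 64.7% at a median wildtype level of 11.79, where 47.0% of all genes between 11 and 12 fell. In its catalytic F1 head 4 of 5 genes fell. Atp5a1 and Atp5b, the alpha and beta subunits, ranged from 12 to 12.19 against 12.24 to 12.38 and from 12.3 to 12.46 against 12.51 to 12.61. Neither overlapped, with differences of -0.22 ± 0.0337 and -0.17 ± 0.0285 (limma adjusted p = 8.73e-05 and 0.000336). Atp5c1, the central stalk gamma subunit, and Atp5d, the delta subunit, differed by -0.14 ± 0.027 and -0.16 ± 0.0387.

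The proton-carrying c subunit is encoded by 3 genes that give the same mature protein, and they did not move alike. Atp5g1 ranged from 10.91 to 11.09 (median 11) in transgenic and from 11.12 to 11.51 (median 11.25) in wildtype arrays, was 1.22-fold lower and did not overlap (-0.29 ± 0.0518; limma adjusted p = 0.000574). Atp5g3 ranged from 12.79 to 12.92 (median 12.86) against 12.93 to 13.1 (median 13.01), also apart (-0.15 ± 0.026; limma adjusted p = 0.000272). Atp5g2 ranged from 11.52 to 11.64 (median 11.54) against 11.45 to 11.66 (median 11.53), with full overlap (0.01 ± 0.0333; limma adjusted p = 0.846). Differences between the 3 genes were not tested. Of 9 genes for the stalk and the membrane part 5 fell, from -0.15 (Atp5pb) to -0.08 (Atp5h), and the 6 genes of the complex that were not called ranged from -0.07 to 0.05.

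**Figure D3:**
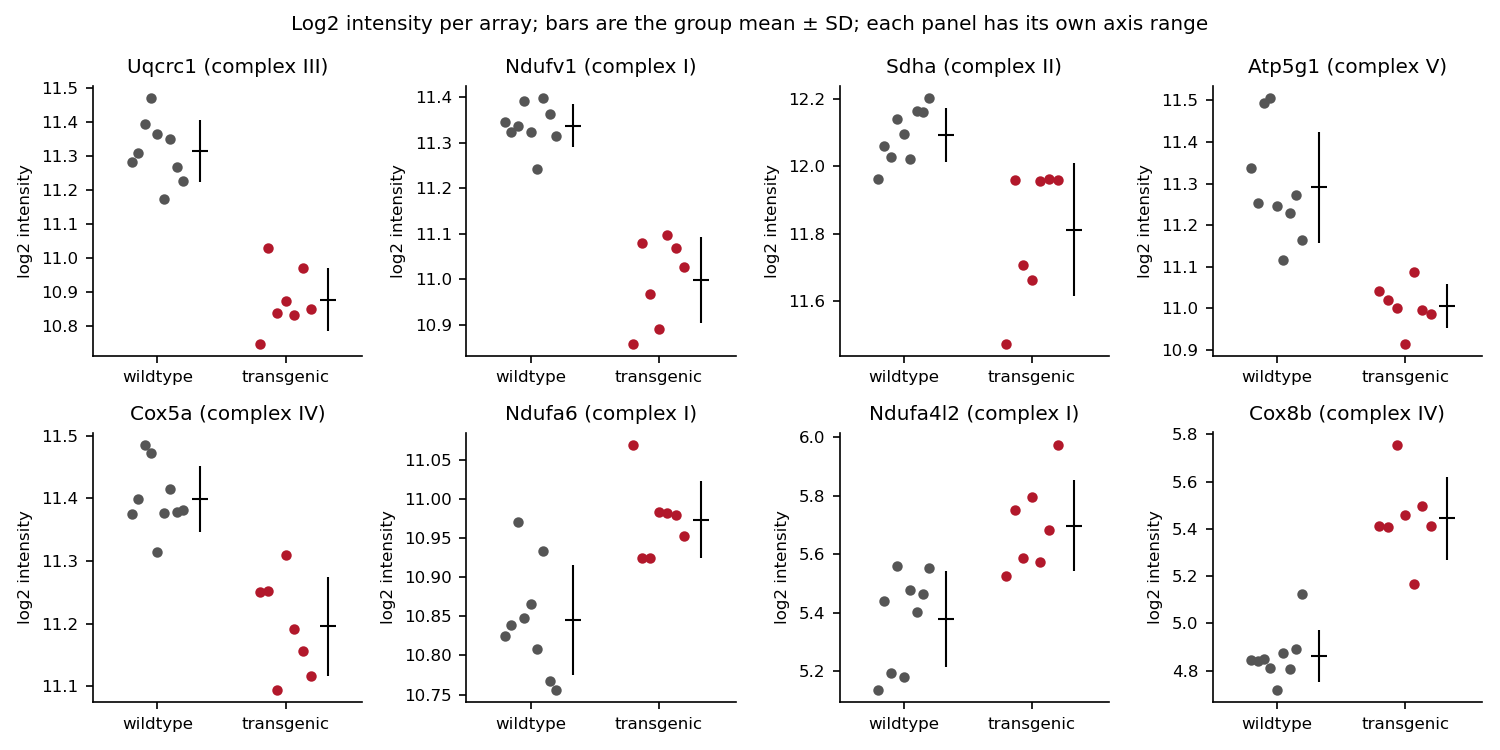
Log2 intensity on each of the 9 wildtype and 7 transgenic arrays for 8 subunit genes, with the group mean ± SD as bars and a separate axis range in each panel. Uqcrc1, Ndufv1, Sdha, Atp5g1 and Cox5a are lower in every transgenic array than in every wildtype array, Ndufa6 and Ndufa4l2 overlap, and Cox8b is higher without overlap.

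Across arrays, the complexes were compared by the mean deviation of their genes from the wildtype means. In complex I the transgenic arrays ranged from -0.16 to -0.08 (mean -0.13 ± 0.0279, SD, n = 7) and the wildtype arrays from -0.06 to 0.08 (SD 0.0461, n = 9). Complex II stood at -0.24 ± 0.151, complex III at -0.13 ± 0.0264 and complex V at -0.11 ± 0.0292 in the transgenic arrays. In each of these 4 complexes every transgenic array was below every wildtype array. Complex IV ranged from -0.07 to 0.07 in transgenic and from -0.05 to 0.07 in wildtype arrays, so its mean of -0.01 lay within the spread. That mean includes the 7 dim tissue isoforms, which averaged 0.06 ± 0.0794 in the transgenic arrays. The 10 ubiquitous subunits alone averaged -0.06 ± 0.0264 in the transgenic arrays, from -0.10 to -0.02 against -0.06 to 0.06 in the wildtype arrays, so they were lower on average and still overlapped. These means share the arrays and the normalization and were not tested. Among wildtype arrays, array 3 was highest in complexes I, III and V and array 6 lowest in complexes I, II, III and V.

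**Figure D4:**
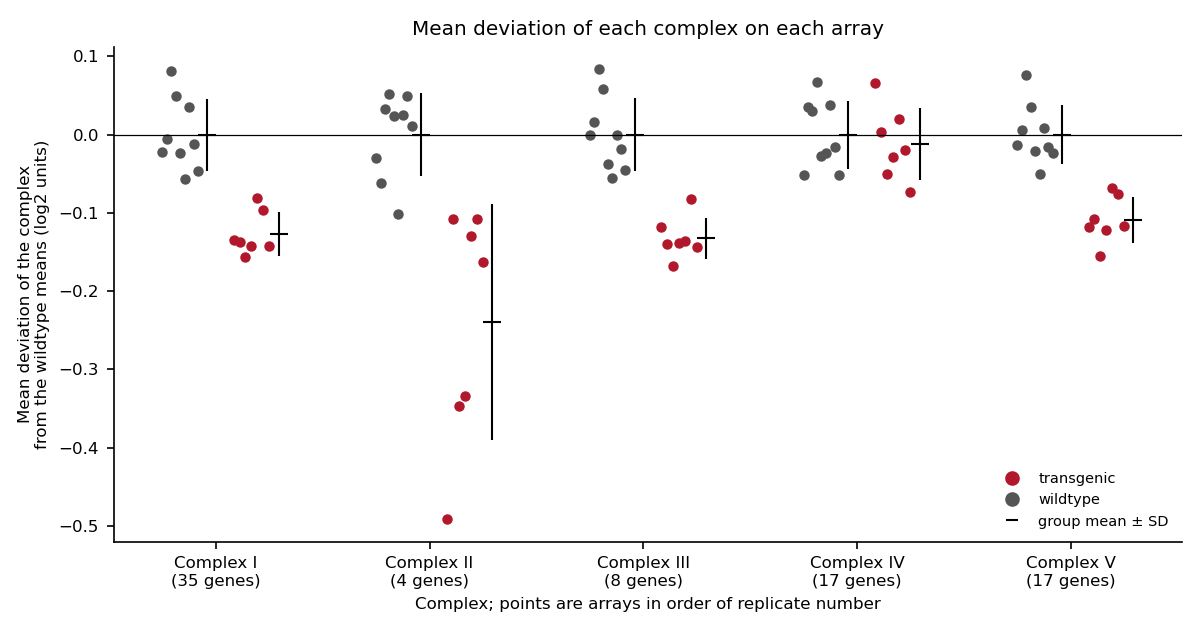
Mean deviation of each complex from the wildtype means (log2 units) on every array, with the group mean ± SD beside the points. Transgenic points lie below all wildtype points in complexes I, II, III and V and among them in complex IV; transgenic array 1 is the lowest point of complex II at -0.49.

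The other parts of the chain showed a mixed picture. Of 14 further components and carriers 9 fell and 2 rose (64.3% and 14.3%). Their median wildtype level was 10.73, where 40.9% of all genes between 10 and 11 fell and 9.23% rose. Between 10.5 and 11 it was 47.4% and 6.10%. Etfdh, which passes electrons from fatty acid oxidation to ubiquinone, fell by 0.43 ± 0.0655, and Cycs, the mobile cytochrome c, fell by 0.21 ± 0.0359. Slc25a4, the ADP/ATP carrier of muscle and heart, rose by 1.61 ± 0.0968 (limma adjusted p = 1.17e-09), while Slc25a5, another ADP/ATP carrier, fell by 0.13 ± 0.0415. Atpif1, which inhibits ATP hydrolysis by complex V, rose by 0.62 ± 0.0592. The mitochondrially encoded subunits had rows for ND3 of complex I and COX2 of complex IV, which differed by -0.01 ± 0.0392 and -0.03 ± 0.0419 and did not pass the test (limma adjusted p = 0.916 and 0.686).

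Assembly factors, which build the complexes without being part of them, were lower in part, at median wildtype levels of 7.90 to 8.66 in the 4 lists, where 31.3% of all genes between 8 and 10 and 5.78% of those below 8 fell. For complex I, 5 of 15 fell and none rose, with a median of -0.15, led by Ecsit (-0.59 ± 0.0611), Foxred1 and Ndufaf6 (both -0.37). For complex IV, 9 of 19 fell and none rose, led by the copper chaperones Cox11 (-0.45 ± 0.0633) and Sco1 (-0.36 ± 0.066) and the insertase Cox18 (-0.32 ± 0.0473). Bcs1l, which inserts the Rieske protein into complex III, was among 3 of 10 lowered factors of complexes II and III (-0.40 ± 0.0696), with Uqcc1 and Ttc19 at -0.24 and -0.16, and Atpaf2 of complex V fell by 0.43 ± 0.0906.

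Among 22 regulators of mitochondrial genes and metabolism 6 fell and 2 rose (27.3% and 9.09%), at a median wildtype level of 7.46. The list is not limited to factors that act on the nuclear subunit genes. Of all genes 11.1% fell and 12.1% rose, and of those below a level of 8 it was 5.78% and 12.6%. The share of raised regulators was thus no larger than that of all genes. The mitochondrial transcription factors Tfam and Tfb2m fell by 0.33 ± 0.0794 and 0.45 ± 0.1, the mitochondrial deacetylase Sirt3 fell by 0.45 ± 0.0646 and the nuclear receptor Esrra fell by 0.19 ± 0.0568. Ppargc1a, the coactivator that drives mitochondrial biogenesis, rose by 0.64 ± 0.14 (limma adjusted p = 0.00268), and Epas1, a hypoxia-inducible factor, rose by 0.59 ± 0.0856. Of the factors whose motifs were searched, Esrra is the oestrogen-related receptor that fell, whereas Nrf1, Gabpa and Yy1 differed by 0.09 ± 0.0535, -0.09 ± 0.0707 and -0.11 ± 0.0523 without passing the test.

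Neighbouring gene lists place the subunits among other metabolic genes. Of all genes 11.1% fell and 12.1% rose, and between wildtype levels of 8 and 10 it was 31.3% and 9.90%. The mitochondrial ribosome, TCA cycle and glycolysis lists had median wildtype levels of 8.84, 9.93 and 8.28. In these lists 41.6%, 42.1% and 11.8% fell and 1.30%, 15.8% and 29.4% rose. The cytosolic ribosome list had a median level of 11.73, where 47.0% of all genes between 11 and 12 fell and 12.3% rose. Of 77 mitochondrial ribosomal protein genes 32 fell and 1 rose, with a median of -0.11, led by Mrps27 (-0.48 ± 0.0818), Mrpl34 (-0.35 ± 0.0645) and Mrpl35 (-0.35 ± 0.0534), and 41 fell with centred arrays. Of 19 genes of the TCA cycle and pyruvate dehydrogenase 8 fell and 3 rose; Suclg2 and Suclg1, subunits of succinyl-CoA ligase, fell by 0.35 ± 0.0682 and 0.34 ± 0.0438, while Pdk4, which inhibits pyruvate dehydrogenase, rose by 0.95 ± 0.168 and the isocitrate dehydrogenase gene Idh2 by 0.52 ± 0.0683. Among cytosolic ribosomal protein genes 33 of 57 rose and 1, Rps4l, fell, with a median of 0.14; Rps4l was at -0.41 ± 0.135, and the largest rises were those of Rpl38 (0.30) and Rpl36a (0.28). With centred arrays 22 of these genes rose, and of all genes 16.8% fell and 9.33% rose. Of 17 glycolysis genes 5 rose and 2 fell, including the platelet phosphofructokinase Pfkp (2.15-fold), Pkm (1.71-fold) and Ldhb (1.46-fold).

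**Figure D5:**
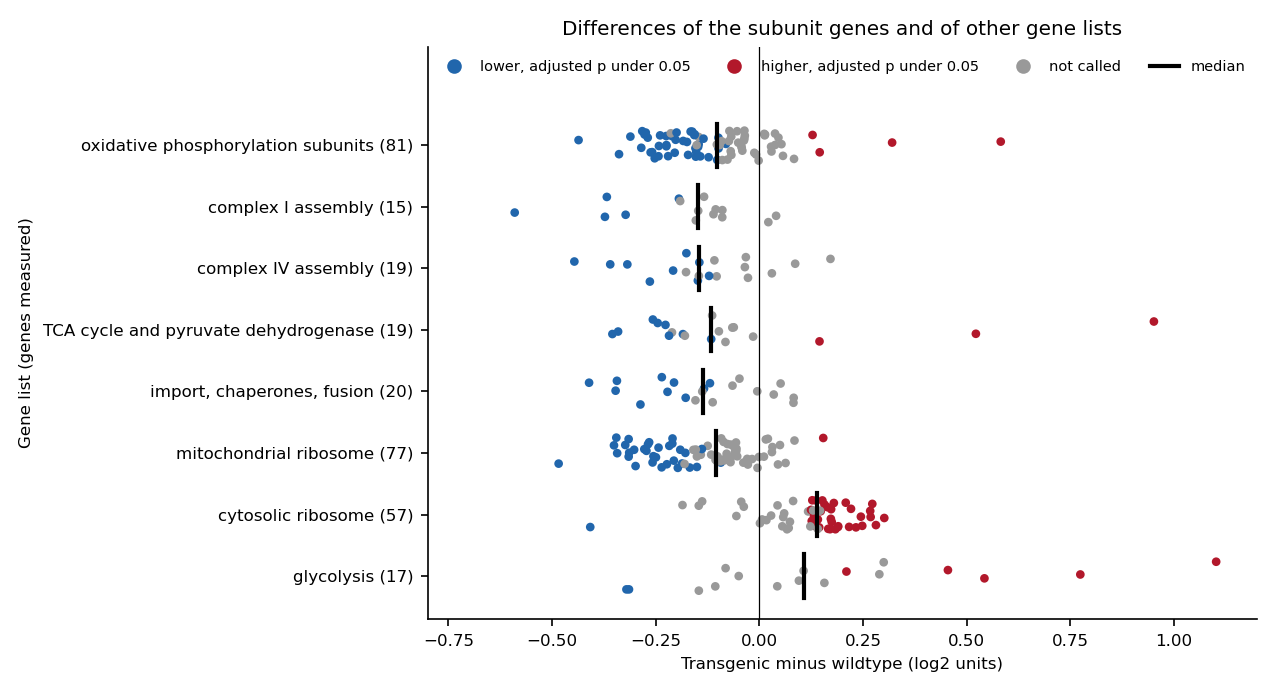
Transgenic minus wildtype difference (log2 units) of each gene in 8 lists, with the list median as a black bar; numbers in brackets are genes measured and vertical scatter within a list carries no meaning. The medians lie at -0.10 for the subunits, -0.11 for the mitochondrial ribosome, 0.14 for the cytosolic ribosome and 0.11 for glycolysis.

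Rows other than the ones used bear on single genes. Of 16 members with more than 1 row, 12 had the same call in all rows. The other 4 were Uqcrb, Cox7b and Ndufb11, not called in the row used and lower in another row (-0.10, -0.18 and -0.12), and Atp5pb, lower in the row used and not called in another (-0.11). Subunit genes have many processed pseudogenes, and rows of short transcripts can read near-identical copies, so single calls in these genes are less certain.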

How the data were processed

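Total hepatic RNA of 7 transgenic and 9 wildtype samples was measured per the labels' protocols on Affymetrix Mouse Gene 1.0 ST arrays. The deposited values are log2 intensities made by the authors with GCRMA (background by probe sequence, normalization between arrays, summary of probes), per the submitters' processing notes; its version and settings are not given in the sources used here, and the log2 scale was read from the range of 0.71 to 14.7. Of 35557 rows, 21789 had 1 gene symbol and 1621 several in the platform annotation. All rows, unfiltered, entered a two-sided limma fit (version 3.58.1, R 4.3.3; 14 residual degrees of freedom, eBayes with trend), with Benjamini-Hochberg adjustment over all rows and a threshold of 0.05. The fit was tested on simulated data. Members and gene lists were chosen with earlier results of these data known. Named with values were the 4 largest falls and rises per complex among called members, core subunits, isoform sets and up to 3 called members per list. Named after their values were seen were Ndufa2, Ndufa7, Ndufa9, Ndufb11, Ndufs6, the small complex III subunits, Cox6c, Cox7a2l, Atp5h, Atp5pb and list members beyond 3 per list. Alternatives were other normalizations, filters, moderation, array weights, a floor, a mean over rows, the replicate block and leaving out arrays. Replicate numbers occur in both groups, but same-numbered arrays did not deviate together. Precision is limited by the number of arrays. Promoter motifs were searched on both strands. Plots were drawn with matplotlib 3.10.9.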

Additional observations from a re-analysis of the deposited data

Results flagged for a closer look

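Single arrays stood apart from the rest of their group in 11 of 174 comparisons (81 genes and 6 mean deviations in 2 groups), where chance gives about 1 in 20 (by Dixon's criterion, the gap to the nearest array over the range of the group). Wildtype array 9 was high in Cox8b at 5.126 and low in Cox6b2 at 5.053 and in Uqcrh at 12.39. Wildtype array 4 was high in Cox4i2 at 5.62 and in Cox7b2 at 3.524. Wildtype array 3 was high in Ndufa7 at 9.462 and in Ndufb5 at 10.63, and wildtype array 6 was low in Sdhc at 11.3. Among transgenic arrays, array 4 was high in Atp5g2 at 11.64, array 3 low in Cox4i2 at 5.192 and array 1 high in Ndufa6 at 11.07. Without wildtype array 9 the count of lowered members was 43, and without transgenic array 1 it was 40.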

How the results depend on the processing

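The direction of the subunit genes as a group held under all 28 alternatives: between 34 (eBayes without a trend) and 57 (each array centred on its median) members were lower, and the median difference lay between -0.15 and -0.10, with -0.15 after centring. Over all genes, centring moved the share lowered from 11.1% to 16.8% and the median difference from -0.04 to -0.09. With eBayes without a trend 10.5% of all genes fell. The count of raised members was 2 after centring and 2 with the replicate block. Complex III had 5 lowered genes after centring, and complex IV had 8 after centring, 2 with eBayes without a trend and 3 with the replicate block. Leaving out each array in turn gave 36 to 43 lowered members, 4 raised, 17 to 21 lowered in complex I, 3 to 4 in complex II, 3 in complex III, 4 to 5 in complex IV and 9 to 11 in complex V. Array medians lay between 5.23 and 5.36 in transgenic and between 5.20 and 5.26 in wildtype arrays. Those of transgenic arrays 1 to 5 were above those of all wildtype arrays, so centring removes a difference that goes with genotype. The cause of these changes was not tested. With the replicate number as a block over 14 arrays, 35 members were lower (39 without the block in the same arrays). Over all rows, deviations of same-numbered arrays from their group means had correlations of -0.0186 to 0.0859. None correlated best with its own number. Whether same-numbered arrays shared a batch was not tested. Some members that were not called changed sign: Ndufa4 after centring (-0.0368); Cox7a1 after quantile normalization (-0.0136); Cox7b2 after centring (-0.0125), with the floor (-0.0055) and without transgenic array 1 and wildtype array 9 (-0.0188); and Atp5g2 after centring (-0.0378), with the replicate block (-0.0055) and in the same 14 arrays without it (-0.0055). Without 1 array, Cox4i2 ranged from -0.0196 to 0.0239, Cox6a2 from -0.0745 to 0.0095, Cox7b2 from -0.0144 to 0.0888 and Atp5g2 from -0.000667 to 0.0273. The alternative without wildtype array 9 and transgenic array 1 together, the fit of 14 arrays without a block and the list counts under other settings were chosen after seeing the data. Dim rows sit near the lower end of the scale, so differences of Ndufa4l2, Cox8b and the other dim isoforms are less certain.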

Other observations

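Genes of mitochondrial import, folding and shape, not described above, were lower in part: 10 of 20 fell and none rose (limma, median -0.14). Their median wildtype level was 9.25, where 31.3% of all genes between 8 and 10 fell and 9.90% rose. Timm9, a chaperone of the intermembrane space, fell by 0.41 ± 0.0712, Opa1, which fuses inner membranes, fell by 0.35 ± 0.0592, and Lonp1, the matrix protease, fell by 0.34 ± 0.0526. Rows that carry several symbols and therefore stood for no member gave values of the same order: the row of Ndufb4 and Ndufb4b with the larger change differed by -0.17 ± 0.035, and 3 rows of Cox7c and Gm12338 by -0.10 to -0.08.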
